A study of Homo sapiens with 4 samples.

Results

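Huh7, an established human hepatocellular carcinoma cell line, was transfected with an siRNA against ODC1 or with a negative control siRNA, and RNA of each culture was sequenced from TruSeq libraries made with total RNA. The comparison covers every gene with at least 1 RPKM (a read level scaled to transcript length and to library size) in either Huh7 library, which kept 11416 of the 18398 rows. Each side of the comparison is 1 library of Huh7 cells, described in the labels only by line and siRNA. A second line, Huh1, received the same 2 siRNAs in the same series, and its values stand beside those of Huh7 only where stated. With 1 library a side there is no spread between replicates, so no test was made, and "higher" and "lower" describe these 2 libraries. Differences are those of the ODC1 siRNA library minus the control siRNA library on log2(RPKM + 1), a scale that understates the change of weakly expressed genes. Ranges given after a difference are exact 95% intervals that cover counting error only.

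ODC1 encodes ornithine decarboxylase, which turns ornithine into putrescine and sets the pace of polyamine synthesis. Putrescine is extended to spermidine and spermine with aminopropyl groups that the product of AMD1 provides. Polyamines bind RNA and DNA, and spermidine is the source of hypusine, the modified residue of the translation factor eIF5A. Liver cancer cells often make polyamines, lipids and lactate at a high rate.

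The 2 libraries had depths of 12197606 reads (control siRNA) and 10215332 reads (ODC1 siRNA), estimated from the smallest values in each file. A kept gene had a median of 487 and 408 reads. Counting error alone gave a log2 interval of about 0.41 either way at 1 RPKM and 0.081 at 100 RPKM. All 8 hepatocyte markers examined and the oncofetal genes AFP (865 to 687 RPKM) and GPC3 were present. Of 11 blood markers 3 (LYZ, CD68 and CD3D) reached 1 RPKM, and PTPRC, which defines white blood cells, was at 0.0769 and 0.147 RPKM. Of 9 endothelial markers in the files only ESAM reached 1 RPKM, and CDH5 was listed at 0 in both libraries. Of 10 fibroblast markers 5 reached 1 RPKM, led by LUM (143 to 193 RPKM) and COL1A1 (107 to 128 RPKM). The median difference over all kept genes was -0.003, the 5th and 95th percentiles were -0.50 and 0.47, and 94.3% of genes differed by less than 1.5-fold. Of 5 equal bins by GC content, the one with the highest had a median of -0.05 and the others lay between -0.02 and 0.02.

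ODC1 itself had a level of 167 RPKM (4198 reads) in the control library and 7.50 RPKM (158 reads) in the ODC1 siRNA library. The difference was -4.304 (-4.51 to -4.099), so 4.49% of the control level was left. Over all kept genes, 39 (0.342%) were at least 2-fold higher and 49, ODC1 included (0.429%), at least 2-fold lower. At least 1.5-fold, 289 genes (2.53%) were higher and 361 (3.16%) lower. These last shares are the background against which the counts for gene lists below are set. For counts of direction alone, 49.5% of all kept genes were on the higher side. The counting interval of the ratio lay above 1 for 38 of the 39 and below 1 for each of the 48 lower genes that had one. Just inside the lower limit stood SLC39A10 at -1.001, and just outside it IL11 at -0.996. ERLIN2 stood just inside the upper limit at 1.004 and FICD just outside it at 0.992.

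**Figure D1:**
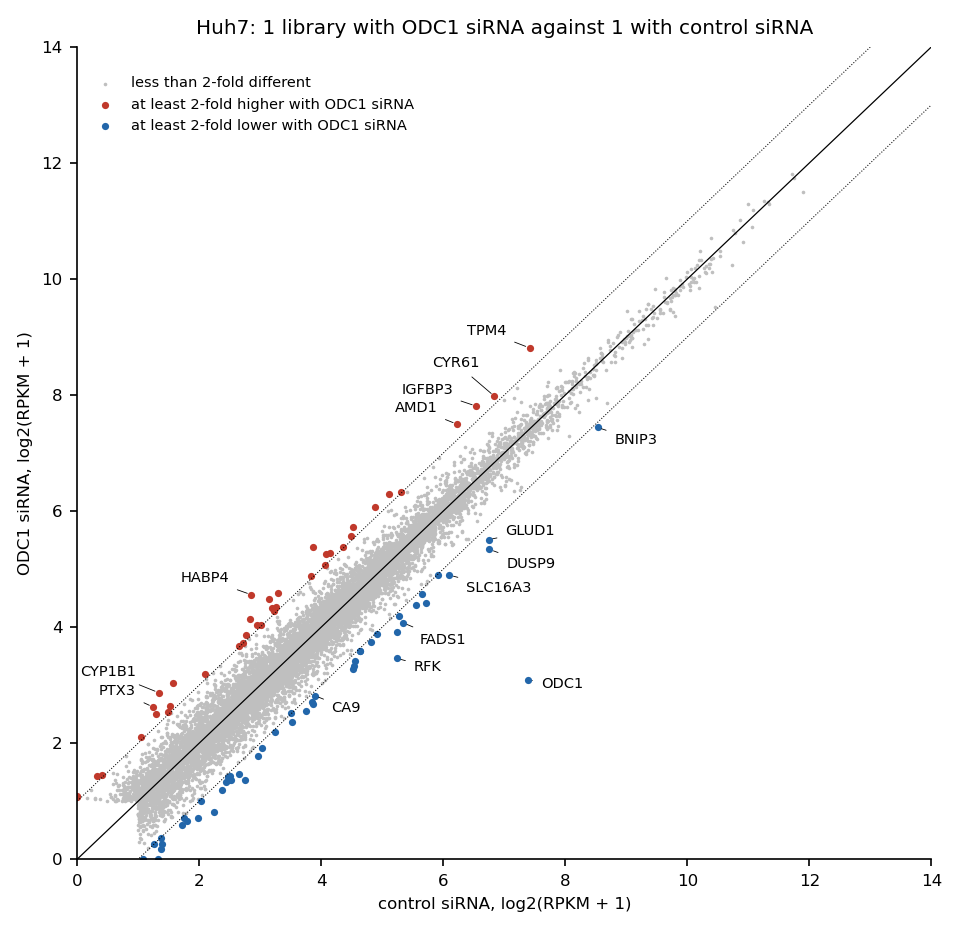
Level of each of the 11416 kept genes with control siRNA (horizontal) and ODC1 siRNA (vertical), both on log2(RPKM + 1), 1 point a gene and 1 library an axis. Dotted lines mark 2-fold. Most points lie near the diagonal, ODC1 lies farthest below it (167 to 7.50 RPKM), and the 39 higher and 49 lower genes are coloured.

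Among the other genes of the polyamine pathway, AMD1 stood apart. AMD1, the gene of S-adenosylmethionine decarboxylase, was at 73.8 and 179.7 RPKM in the control and ODC1 siRNA libraries, the order of all value pairs that follow, a difference of 1.27 (1.21 to 1.33). The spermine synthase gene SMS was at 209 and 255 RPKM (0.28) and the spermidine synthase gene SRM at 83.5 and 87.3 RPKM (0.06). AMD1 was thus the one other gene of polyamine synthesis past 2-fold, and SRM had a counting interval that held 0. Among the 5 kept genes of polyamine breakdown and of the antizymes, which mark ODC1 for destruction, none was past 1.5-fold. SAT1, whose acetyltransferase starts polyamine export and breakdown, was at 28.2 and 22.7 RPKM (-0.2996), and the spermine oxidase gene SMOX at 19.4 and 24.4 RPKM (0.31). The antizyme inhibitor gene AZIN1 differed by -0.099.

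All 4 genes of eIF5A and of hypusine formation were on the lower side, 1 of them past 1.5-fold. The counting interval lay below 0 for only 2 of the 4. EIF5A was at 351 and 324 RPKM (-0.11) and the deoxyhypusine synthase gene DHPS at 33.4 and 32.7 RPKM (-0.03, -0.21 to 0.15). The less expressed EIF5A2 was at 5.57 and 2.83 RPKM (-0.78). Its 3' UTR holds 3 copies of a 7-base word that is described further on. Of 16 kept genes that make or use ornithine, arginine and proline, 12 were lower and 3 were past 1.5-fold, with a list median of -0.18. The arginase gene ARG1, which yields ornithine, was at 6.18 and 3.38 RPKM (-0.71), and GATM, which takes arginine into creatine synthesis, at 9.19 and 5.26 RPKM (-0.703). The ornithine aminotransferase gene OAT was at 43.8 and 36.5 RPKM (-0.25). The 16 kept genes of the methionine cycle and of methylthioadenosine salvage, which recover methionine from polyamine synthesis, had a median of 0.06, and none was past 1.5-fold.

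Glutamate and glutamine genes were all on the lower side, 16 of 16, with a median of -0.25 and 3 past 1.5-fold. The counting interval lay below 0 for 10 of them, and the smallest difference was -0.013. GLUD1, the mitochondrial glutamate dehydrogenase gene, was at 106 and 44.5 RPKM (-1.23, -1.32 to -1.15). GLUD2, a near-identical copy of it, was at 7.54 and 4.73 RPKM (-0.58), and its reads cannot be told from those of GLUD1 with certainty. The glutamine transporter gene SLC38A3 was at 6.28 and 2.75 RPKM (-0.96) and the glutamate transporter gene SLC1A1 at 10.9 and 6.79 RPKM (-0.61). SLC38A2, another glutamine transporter gene, was at 162 and 126 RPKM (-0.36). The glutamine synthetase gene GLUL was at 28.3 and 22.03 RPKM (-0.35).

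Genes of glucose use and genes induced by hypoxia were mostly lower. Hypoxia-inducible factor (HIF) is known to raise the transcription of glucose carriers, glycolytic enzymes and lactate exporters and to hold back the entry of pyruvate into mitochondria. Of 30 kept HIF genes outside glycolysis, 25 were lower, 12 were at least 1.5-fold lower, 4 at least 2-fold lower and none at least 1.5-fold higher. Their median was -0.42, against -0.003 over all genes. These and all other lists were chosen with earlier results of these data known, so the direction of a list is a description.

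PDK1, a kinase that switches off pyruvate dehydrogenase, was at 45.8 and 19.8 RPKM (-1.17, -1.303 to -1.04). PFKFB4 and PFKFB3, whose enzymes make the activator of phosphofructokinase, were at 22.2 and 9.06 RPKM (-1.21) and 51.7 and 25.9 RPKM (-0.97). BNIP3, a mitochondrial receptor for mitophagy, was at 368 and 173 RPKM (-1.09, -1.13 to -1.04). The carbonic anhydrase gene CA9 was at 13.9 and 6.05 RPKM (-1.08) and MXI1, an antagonist of MYC, at 10.1 and 6.02 RPKM (-0.66). ANKRD37, DDIT4, INSIG2 and NDRG1, other genes of the list, stood between -0.605 and -0.63. Some HIF genes were on the higher side: ADM, the adrenomedullin gene, was at 25.3 and 36.9 RPKM (0.53), while VEGFA, the angiogenic growth factor gene, was at 35.2 and 32.9 RPKM (-0.096). The factor gene HIF1A was itself at 147 and 110.2 RPKM (-0.41), EPAS1 at 18.5 and 17.8 RPKM (-0.05) and ARNT at 12.3 and 13.01 RPKM (0.07).

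Glycolytic enzymes followed the same direction at much higher levels. Of 17 kept genes, 14 were lower, 2 of them at least 1.5-fold, and the median was -0.33. Summed over the list, the level was 10505 RPKM in the control library and 7719 RPKM in the other. The aldolase gene ALDOC was at 51.9 and 20.3 RPKM (-1.31) and LDHA, whose enzyme turns pyruvate into lactate, at 1396 and 735 RPKM (-0.92, -0.95 to -0.895). PGK1 was at 362 and 247 RPKM (-0.55), ENO1 at 1710.1 and 1215 RPKM (-0.49) and TPI1 at 894 and 655 RPKM (-0.45). GAPDH, often used as a reference gene, was at 3805 and 2879 RPKM (-0.402). LDHB, the other lactate dehydrogenase gene, went the other way from a low level, at 2.68 and 5.72 RPKM (0.87). Of the carriers, the lactate exporter gene SLC16A3 was at 67.6 and 28.7 RPKM (-1.205) and the glucose carrier gene SLC2A1 at 33.9 and 16.8 RPKM (-0.97). SLC16A1, another lactate carrier gene, was at 40.5 and 37.95 RPKM (-0.09). In glycogen metabolism PGM1 was at 40.9 and 21.2 RPKM (-0.91) and the glycogen phosphorylase gene PYGL at 64.1 and 42.1 RPKM (-0.59).

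**Figure D2:**
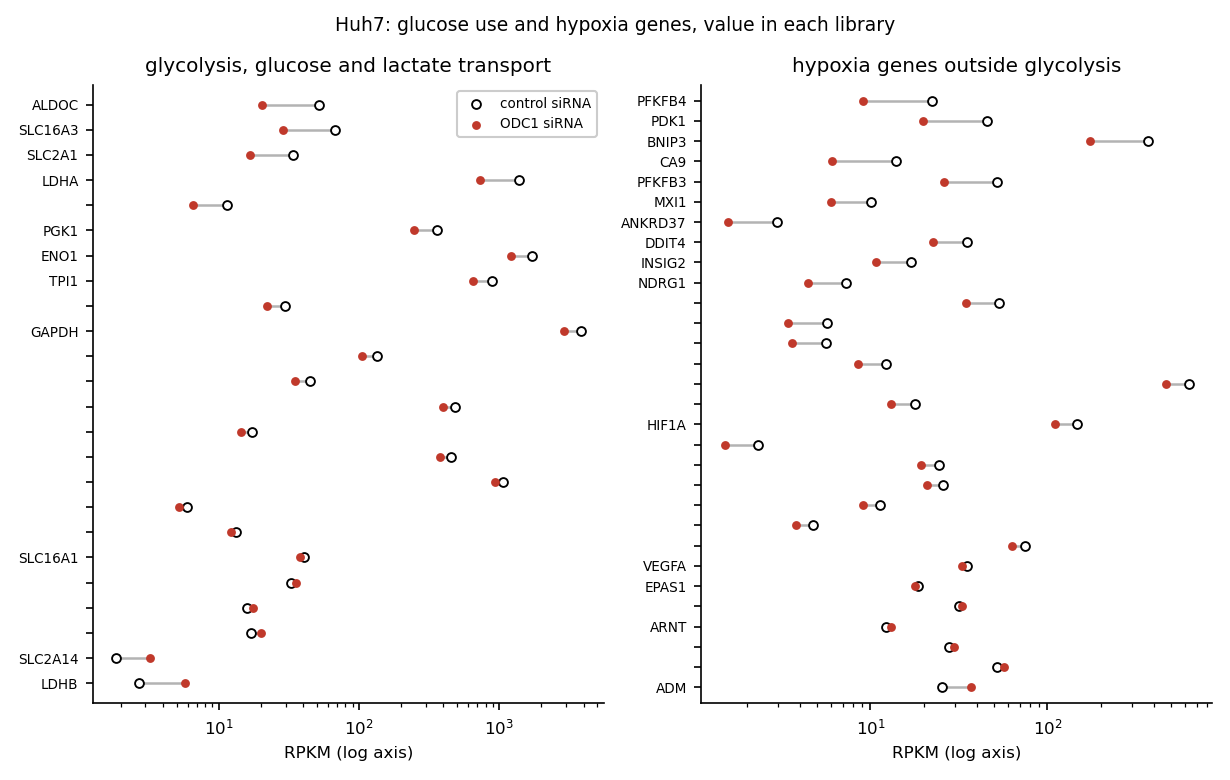
RPKM of each kept gene of glycolysis and of glucose and lactate transport (left) and of hypoxia genes outside glycolysis (right), on log axes, sorted by the log2 difference. Open circles are the control siRNA library and filled circles the ODC1 siRNA library, 1 library each. Filled circles lie to the left for 25 of the 30 hypoxia genes, and genes not named in the text have no label.

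The promoters of some of these genes show the short core that HIF is known to bind, ACGTG, read on either strand. In the 300 bases from 250 before to 50 after the start site (RefSeq, GRCh38.p14), 13 of 26 HIF genes with a promoter in the table held it (50%), 8 of 17 glycolysis genes (47.1%) and 27.3% of the 9476 kept genes with a promoter. Of 5 glucose and lactate transport genes 1 held it (20%), SLC2A14, which was higher (0.56). The kept genes with the core had a median difference of 0.002, near that of all genes. The HIF list contains genes that were included because HIF is known to act on them. CA9, BNIP3 and LDHA are printed because they are among the lower genes and hold the core, in capitals, once, in 1 palindromic stretch and in 3 stretches. They are at chr9:35673678-35673977 (plus strand), chr10:131981874-131982173 (minus strand) and chr11:18394313-18394612 (plus strand). The windows of PDK1, SLC16A3 and PFKFB4, also lower, held no match. The PDK1 window (chr2:172555123-172555422) ends before the start of its GENCODE transcript at 172556051. The SLC16A3 window (chr17:82228185-82228484) likewise ends before the start of its transcript at 82229032. For PDK1 and SLC16A3 the bases around those transcript starts were therefore not read. A match is a description of the letters, not a binding site.
CA9: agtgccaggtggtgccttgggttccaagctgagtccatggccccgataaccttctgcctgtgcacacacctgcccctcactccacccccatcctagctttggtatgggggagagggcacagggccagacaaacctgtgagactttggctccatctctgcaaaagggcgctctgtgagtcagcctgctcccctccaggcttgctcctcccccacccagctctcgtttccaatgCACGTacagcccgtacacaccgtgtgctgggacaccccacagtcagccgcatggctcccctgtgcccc
BNIP3: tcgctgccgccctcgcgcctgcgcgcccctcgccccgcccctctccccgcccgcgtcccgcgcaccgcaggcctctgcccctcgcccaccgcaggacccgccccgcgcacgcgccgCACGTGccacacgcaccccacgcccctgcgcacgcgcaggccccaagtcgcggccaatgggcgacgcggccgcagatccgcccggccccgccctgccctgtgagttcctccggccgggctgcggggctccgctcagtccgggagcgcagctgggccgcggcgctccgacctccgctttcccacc
LDHA: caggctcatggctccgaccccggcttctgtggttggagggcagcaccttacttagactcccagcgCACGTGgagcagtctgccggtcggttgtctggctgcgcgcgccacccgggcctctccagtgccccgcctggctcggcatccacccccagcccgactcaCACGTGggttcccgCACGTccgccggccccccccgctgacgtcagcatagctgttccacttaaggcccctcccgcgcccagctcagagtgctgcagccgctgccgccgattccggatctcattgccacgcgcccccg

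Genes of pyruvate oxidation and respiration were near level. Of 31 kept genes of pyruvate dehydrogenase and the citrate cycle, 22 were lower and 9 higher, and the median was -0.05. Only 1 was past 1.5-fold, PDK1. The isocitrate dehydrogenase gene IDH1 was at 173 and 128 RPKM (-0.43). Complex I had a median of 0.04 over 38 genes, of which 25 were higher and none was past 1.5-fold. Complexes III to V had a median of 0.04 over 35 genes, with the cytochrome c gene CYCS at 66.03 and 95.03 RPKM (0.52) and UQCRC2 at 69.1 and 48.5 RPKM (-0.501).

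Lipid synthesis genes formed the next group. Cholesterol is made from acetyl-CoA through mevalonate, and its genes and those of fatty acid desaturation are known to answer to the sterol-regulated factors of the SREBF genes. Of 21 kept cholesterol synthesis genes, 20 were lower, 8 at least 1.5-fold, and the counting interval lay below 0 for 19. Their median was -0.53, the lowest of the 52 lists with at least 5 kept genes. HMGCS1, at the entry to the pathway, was at 267 and 156 RPKM (-0.77). IDI1, the isopentenyl isomerase gene, was at 81.8 and 44.9 RPKM (-0.85, -0.96 to -0.75), the squalene synthase gene FDFT1 at 70.8 and 42.2 RPKM (-0.73) and the squalene epoxidase gene SQLE at 66.5 and 45.8 RPKM (-0.53). PMVK was the one gene on the higher side, at 31.2 and 40.4 RPKM (0.36).

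Genes of sterol control and lipoprotein uptake did not follow one direction. VLDLR, a lipoprotein receptor gene, was higher, at 16.9 and 27.5 RPKM (0.67, 0.58 to 0.76). STARD4, a sterol carrier gene, was lower, at 12.8 and 6.35 RPKM (-0.91). The factor genes differed less, with SREBF1 at 19.6 and 16.7 RPKM (-0.22) and SREBF2 at 64.2 and 56.9 RPKM (-0.17). Over the 21 kept genes of sterol control and uptake the median was -0.15, with 1 past 1.5-fold higher and 2 lower.

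In fatty acid synthesis 12 of 16 kept genes were lower, 3 past 1.5-fold, and the median was -0.37. All 3 were desaturases: FADS1 at 39.6 and 15.8 RPKM (-1.27, -1.39 to -1.16), FADS2 at 152 and 81.03 RPKM (-0.895) and SCD at 411 and 231 RPKM (-0.83). The fatty acid synthase gene FASN was at 90.8 and 61.5 RPKM (-0.55) and the elongase gene ELOVL6 at 19.6 and 12.8 RPKM (-0.57). ME1, the malic enzyme gene, was at 22.4 and 31.5 RPKM (0.47). Fatty acid oxidation was level as a list (27 genes, median -0.02), but CPT1A, which lets fatty acids into mitochondria, was at 18.8 and 10.5 RPKM (-0.79) and ACADM at 21.4 and 12.6 RPKM (-0.72). Of 20 triglyceride and lipid droplet genes, 2 were past 1.5-fold, both lower, among them GPAM at 4.65 and 2.46 RPKM (-0.71).

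**Figure D3:**
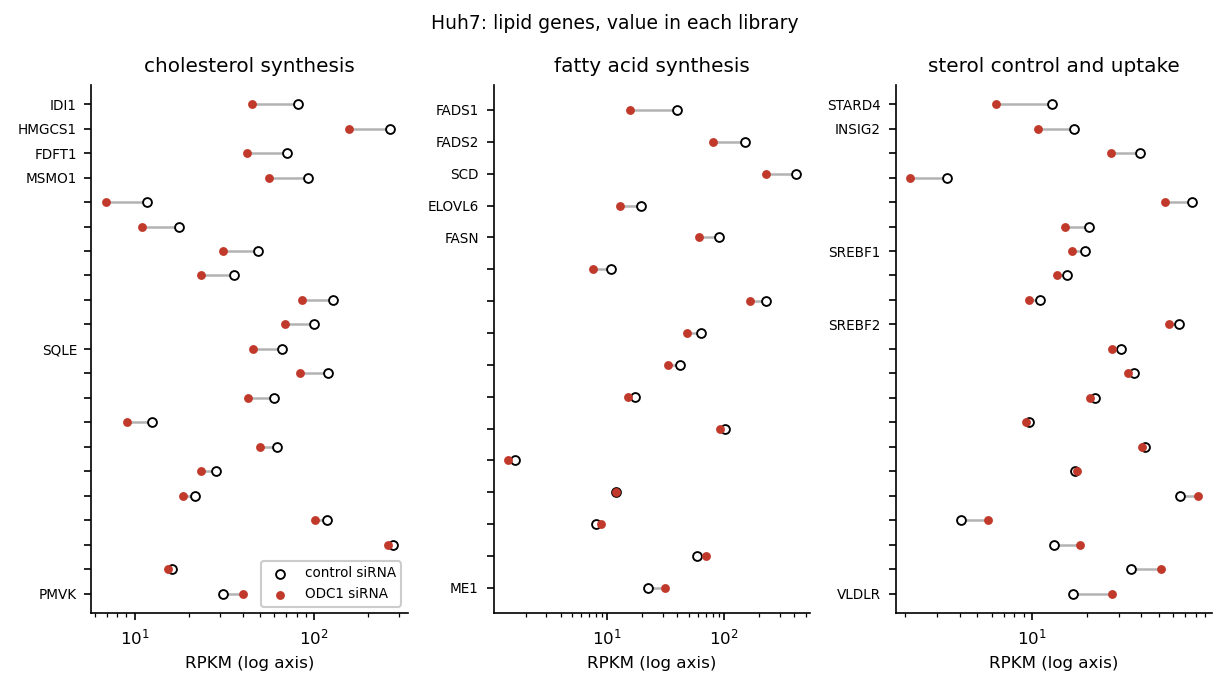
RPKM of each kept gene of cholesterol synthesis (left), fatty acid synthesis and desaturation (middle) and sterol control and lipoprotein uptake (right), on log axes, sorted by the log2 difference. Open circles are the control siRNA library and filled circles the ODC1 siRNA library, 1 library each. The ODC1 siRNA value is the lower one for 20 of 21 cholesterol synthesis genes, and VLDLR lies at the other end of the right panel. Genes not named in the text have no label.

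Liver identity genes were lower in part. Of 19 kept hepatocyte transcription factors, 14 were lower and 6 past 1.5-fold, with none past it on the higher side and a median of -0.33. NR0B2, an orphan nuclear receptor that restrains bile acid synthesis, was at 5.29 and 1.77 RPKM (-1.18, -1.66 to -0.69), and its activator NR5A2 at 21.4 and 11.1 RPKM (-0.89). ONECUT1 was at 17.1 and 9.15 RPKM (-0.84) and CEBPA at 68.9 and 43.3 RPKM (-0.66). Of 38 plasma, coagulation and complement genes, 2 were past 1.5-fold, both lower, and the median was -0.08. SERPINF2, the antiplasmin gene, was at 54.03 and 28.9 RPKM (-0.88), APOA1 of high-density lipoprotein at 20.4 and 11.1 RPKM (-0.82), and the transthyretin gene TTR at 29.3 and 43.99 RPKM (0.57). The fetal growth factor gene IGF2 was at 142 and 80.001 RPKM (-0.82). In a bulk culture, fewer cells of a kind and less RNA per cell cannot be told apart.

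Genes of actin fibres, matrix and inflammation were on the higher side. Of 26 kept actin cytoskeleton genes, 23 were higher, 4 past 1.5-fold and 3 of these past 2-fold, with a median of 0.25 and none past 1.5-fold lower. The tropomyosin gene TPM4 was at 169.5 and 449 RPKM (1.399, 1.35 to 1.44), the calponin gene CNN1 at 6.67 and 15.4 RPKM (1.09) and the transgelin gene TAGLN at 21.4 and 46.5 RPKM (1.08). TPM2 and TPM1, other tropomyosins, were at 241 and 346 RPKM (0.52) and 64.6 and 89.7 RPKM (0.47), and MYL12A, a myosin light chain gene, at 332 and 242 RPKM (-0.46).

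Of 17 genes of the YAP and TEAD pathway, which reads cell tension, 15 were higher and 3 past 1.5-fold. CYR61, a matricellular target gene, was at 113 and 251 RPKM (1.14, 1.08 to 1.205) and the tissue factor gene F3 at 8.88 and 16.2 RPKM (0.796). Matrix genes had a median of 0.20 over 27, with the tenascin gene TNC at 1.97 and 7.19 RPKM (1.46) and the metalloproteinase inhibitor gene TIMP2 at 27.3 and 14.5 RPKM (-0.87). Over the 10 fibroblast markers the summed level was 299.9 RPKM in the control library and 387 RPKM in the other. PDGFRA, one of them, was at 15.3 and 15.7 RPKM, while DCN, PDGFRB, ACTA2, THY1 and POSTN were under 1 RPKM in both libraries. The part of other cell types in the matrix values was not tested.

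Inflammatory and NF-kB genes were all higher, 17 of 17, with 6 past 1.5-fold and a median of 0.32. The pentraxin gene PTX3 was at 1.37 and 5.15 RPKM (1.38), the adhesion molecule gene ICAM1 at 71.4 and 114 RPKM (0.67) and the chemokine genes CXCL5 and CXCL6 at 107 and 162 RPKM (0.59) and 17.4 and 29.5 RPKM (0.73). EREG and HBEGF, which encode ligands of the EGF receptor, were at 13.6 and 40.6 RPKM (1.51) and 4.09 and 9.07 RPKM (0.99), while the receptor gene EGFR was at 44.2 and 45.1 RPKM (0.03). DUSP9, a phosphatase that switches off MAP kinases, was at 107 and 39.4 RPKM (-1.42, -1.52 to -1.32). The feedback inhibitor gene SPRY2 was at 19.3 and 30.9 RPKM (0.65). IGFBP3, a carrier of insulin-like growth factors, was at 91.96 and 223 RPKM (1.27, 1.21 to 1.33). Immediate-early genes had a median of 0.38 over 14, with FOS at 1.06 and 3.31 RPKM (1.06) and JUNB at 33.6 and 17.7 RPKM (-0.89). Among markers of other cell types, CD68 was at 3.71 and 6.05 RPKM (0.58), LYZ at 11.1 and 15.3 RPKM (0.43) and CD3D at 2.21 and 1.45 RPKM (-0.39), and the endothelial marker ESAM was at 13.7 and 21.1 RPKM (0.59). Summed over the 11 blood markers the level was 17.4 and 23.5 RPKM, with PTPRC under 1 RPKM and MS4A1 and HBB listed at 0 in both. Their part in the inflammatory values was not tested. Interferon and antigen presentation genes were level (20 genes, median -0.01, 10 higher and 10 lower).

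Stress pathways differed from each other. Metallothioneins and zinc genes had the highest list median, 0.50 over 12, with 4 past 1.5-fold higher and 2 lower. MT1G was at 10.6 and 21.01 RPKM (0.93), MT1F at 33.2 and 62.8 RPKM (0.901) and MT1E at 57.2 and 94.8 RPKM (0.72), copies close enough in sequence for their reads to be shared between them. The zinc importer gene SLC39A10 was at 10.4 and 4.698 RPKM (-1.001), and the zinc-sensing factor gene MTF1 at 4.09 and 7.33 RPKM (0.71). Of 9 aryl hydrocarbon receptor genes 3 were past 1.5-fold, all higher: CYP1B1 at 1.53 and 6.298 RPKM (1.53), CYP1A1 at 8.55 and 19.3 RPKM (1.09) and UGT1A6 at 2.11 and 4.55 RPKM (0.83). Heat shock proteins were lower in 14 of 15 with a median of -0.21 and none past 1.5-fold. In the integrated stress response, which slows translation, PPP1R15A, the gene of its phosphatase subunit, was at 28.4 and 66.01 RPKM (1.19, 1.07 to 1.31). The list as a whole had a median of 0.07 over 21, with DDIT4 at 35.2 and 22.5 RPKM (-0.63) and CHAC1 at 7.305 and 4.14 RPKM (-0.69).

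Translation and growth genes differed little. The 76 cytosolic ribosomal protein genes, many with near-identical pseudogenes, lay between -0.29 and 0.27 with a median of -0.04. The 20 aminoacyl-tRNA synthetases had a median of -0.06 and none past 1.5-fold. In ribosome biogenesis NOLC1, a nucleolar phosphoprotein gene, stood apart at 33.7 and 77.1 RPKM (1.17). DNA replication genes were lower in 26 of 33 (median -0.14) and mitosis genes in 21 of 26 (median -0.12), with none past 1.5-fold in either list. The cyclin genes CCNE1 and CCND1 were at 14.03 and 8.35 RPKM (-0.69) and 101 and 70.99 RPKM (-0.502), and BIRC5, which encodes survivin, at 39.3 and 59.4 RPKM (0.58).

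**Figure D4:**
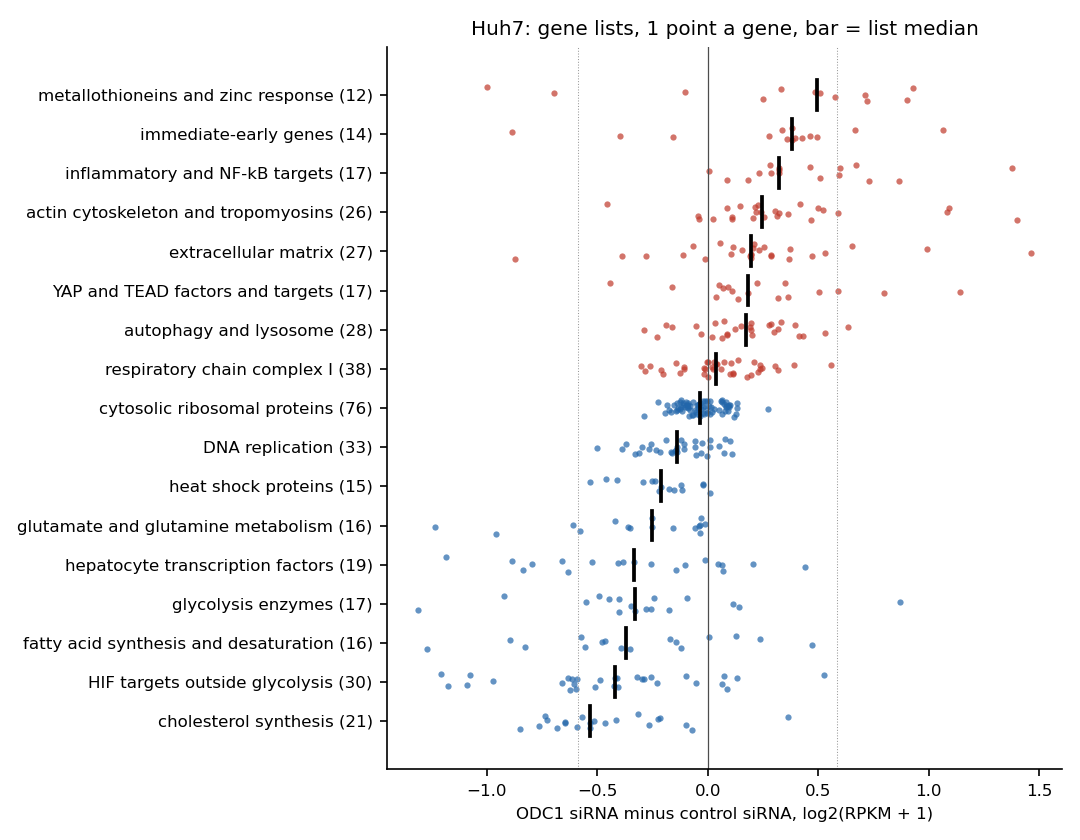
Difference of ODC1 siRNA minus control siRNA on log2(RPKM + 1) for each kept gene of 17 lists, 1 point a gene, with the number of genes in brackets and the list median as a bar. Dotted lines mark 1.5-fold. Cholesterol synthesis has the lowest median (-0.53) and metallothioneins and zinc response the highest (0.50), and ribosomal proteins lie close to 0.

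Some of the largest differences belonged to genes on none of the lists. RFK, which makes the flavin cofactor FMN, was the lowest after ODC1 at 36.8 and 10.02 RPKM (-1.78, -1.95 to -1.5998). The cytoglobin gene CYGB was at 5.71 and 1.57 RPKM (-1.38), REEP6 at 36.7 and 14.1 RPKM (-1.32), CXXC5 at 21.9 and 8.73 RPKM (-1.23) and the DNA glycosylase gene NTHL1 at 12.4 and 4.86 RPKM (-1.198). On the higher side HABP4 was at 6.22 and 22.5 RPKM (1.705, 1.499 to 1.92), TUFT1 at 6.11 and 16.6 RPKM (1.31), MESDC2 at 8.76 and 23.02 RPKM (1.299), GNPDA1, which acts on glucosamine phosphate, at 21.8 and 52.2 RPKM (1.22), and the histone methyltransferase gene SETD7 at 16.6 and 37.9 RPKM (1.15). Of the 39 higher genes 13 were on a list, and of the 49 lower genes 12, against 1009 of the 11416 kept genes. The lists were chosen with earlier results of these data known.

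The 3' UTRs of some of these genes share short words. An siRNA is known to lower, besides its target, transcripts whose 3' UTR pairs with a short stretch near the 5' end of its guide strand. No siRNA sequence was at hand, and whether either siRNA pairs with the words was not tested. Among 11000 kept genes with a 3' UTR in GENCODE release 29, ODC1 left out, all 7-base words present in at least 100 of the UTRs were ranked by the mean difference of the genes that hold them. Of 15459 such words, TCGGAGA (188 genes) had the highest mean. ATATCAT (1111 genes, -0.091 against the genes without it) had the lowest but 1, after CGCGGCT (104 genes, -0.11). Among the 10901 words in at least 500 UTRs, to which neither TCGGAGA nor CGCGGCT belongs, ATATCAT had the lowest. TCGGAGA and ATATCAT were thus chosen on these values, which are a description.

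The word ATATCAT also occurs once in the ODC1 transcript, in the coding sequence at base 1377 of 2653, while TCGGAGA does not occur in it. For scale, 10.1% of the 11000 genes held ATATCAT in the 3' UTR alone. Any link between the copy in ODC1 and the siRNA was not tested. The windows below give each word in capitals with 7 bases on either side, for ODC1 and for genes with large differences. Those of ODC1, RFK, DUSP9, GLUD1 and DYNLT3 are at chr2:10442046-10442066, chr9:76387211-76387231, chrX:153651260-153651280, chr10:87051078-87051098 and chrX:37840409-37840429 (GRCh38). Those of HABP4, CYP1B1, TPM4, TUFT1 and NOLC1 are at chr9:96490463-96490483, chr2:38070667-38070687, chr19:16101486-16101506, chr1:151581742-151581762 and chr10:102162297-102162317.
ODC1: gcagttaATATCATtgccaag
RFK: gcccatcATATCATagcacta
DUSP9: gtaatccATATCATagttgct
GLUD1: tatttttATATCATaaaacaa
DYNLT3: gcaagcaATATCATagtaatt
HABP4: tgagtttTCGGAGAccaagaa
CYP1B1: cacatctTCGGAGAtgaggag
TPM4: ttttgtaTCGGAGAagctttg
TUFT1: ctctgccTCGGAGAagcccac
NOLC1: gtgatgaTCGGAGActactta

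The run of bases that RFK, DUSP9 and GLUD1 share with ODC1 around the word is the 7 bases of the word itself, and DYNLT3 shares 8. In those 4 windows the base after the word is A, whereas in ODC1 it is T, and RFK has another copy that is followed by G. These windows were picked for print: of the 8 genes with the word that were at least 2-fold lower, 4 had a copy followed by A and 4 did not. The 1111 genes with ATATCAT in the 3' UTR had a median difference of -0.07, against 0.01 in the other genes, and 61.4% of them were lower. The share at least 1.5-fold lower was 5.85%, against 2.88% of the rest. With the word followed by A the median of 285 genes was -0.14 and 10.5% were at least 1.5-fold lower, and without that A it was -0.05 in 826 genes. The genes with the word had longer 3' UTRs, with a median of 3006 bases against 935.

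For TCGGAGA the 188 genes had a median of 0.14 and 14.9% were at least 1.5-fold higher, against 2.34% of the rest. The share at least 1.5-fold lower was 3.19%, against 3.18% of the rest. With the word followed by A the median of 55 genes was 0.24. The genes with TCGGAGA also had longer 3' UTRs, with a median of 2531.5 bases against 1044.5. Of the 39 genes at least 2-fold higher, 9 held TCGGAGA (23.1%, against 1.71% of all genes with a 3' UTR) and 1 held ATATCAT. Of the 46 genes at least 2-fold lower with a 3' UTR other than ODC1, 8 held ATATCAT (17.4%, against 10.1%) and none TCGGAGA. Most of the genes past 2-fold therefore held neither word, 30 of the 39 and 38 of the 46. Both are smaller shares than that of all genes with a 3' UTR, 9726 of 11000. In the Huh1 libraries, whose values were not used in the ranking but were known when the words were chosen, the medians were -0.02 with ATATCAT against 0.02 without, and 0.12 with TCGGAGA against 0.02 without.

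**Figure D5:**
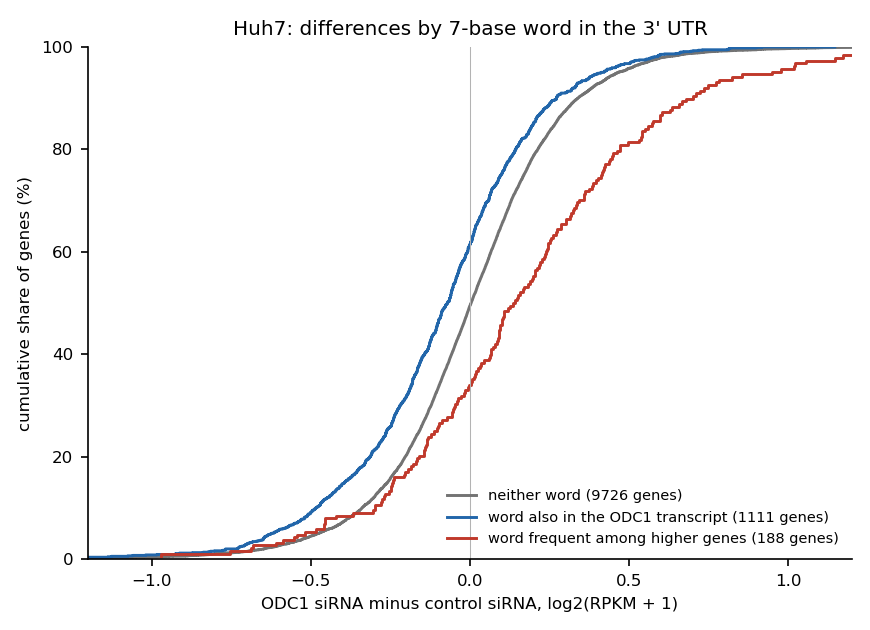
Cumulative share of genes (vertical, in percent) against the difference of ODC1 siRNA minus control siRNA on log2(RPKM + 1) (horizontal), for genes whose 3' UTR holds the word also found in ODC1 (1111 genes), the word frequent among higher genes (188 genes) or neither (9726 genes). The first curve lies to the left of the curve for neither word and the second to the right (medians -0.07 and 0.14). Differences beyond 1.2 are outside the axis.

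The lists described above were mostly made of genes with neither word, as were all genes with a 3' UTR (9726 of 11000). Cholesterol synthesis had a median of -0.52 over the 18 genes without them, HIF genes -0.41 over 28, glycolysis -0.28 over 15, and hepatocyte transcription factors -0.33 over 17. Without them inflammatory genes stood at 0.32 over 17 and actin genes at 0.25 over 24. The words were chosen on these values, and no siRNA sequence was at hand. The part of siRNA pairing in the lists was not tested. Among the genes with ATATCAT were GLUD1, GLUD2, LDHA, MSMO1, STARD4, DUSP9 and also VLDLR, which was higher (0.67). TCGGAGA was held by TPM4, NOLC1, CYP1B1 and MTF1, all higher, and also by PFKFB3, which was lower (-0.97). AMD1, EREG, IGFBP3, CYR61, BNIP3, PDK1 and FADS1 held neither.

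Beside Huh7, ODC1 in Huh1 was at 103 and 25.01 RPKM. Of the 39 genes at least 2-fold higher in Huh7, 34 were on the higher side in Huh1 (54.3% of all genes were) and 4 were at least 2-fold higher there. Of the 49 lower genes, 31 were on the lower side in Huh1 (45% of all genes were) and 2, ODC1 included, at least 2-fold lower. These counts set no minimum level in Huh1, so they include genes with few or no reads there. Examples are TNC, counted as higher at 0.034 and 0.042 RPKM, and CYGB, counted as lower at 0.115 and 0.046 RPKM. Whether the lines differ was not tested.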

How the data were processed

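RNA-seq gene levels of 2 Huh7 libraries were compared, 1 per siRNA, and 2 Huh1 libraries served for values side by side. The deposited files hold RPKM values made by the authors, 1 row per gene with a RefSeq transcript. The submitters' processing notes list CASAVA 1.8.2, TopHat2 2.0.9 and hg19. How reads were counted, on which annotation and whether by strand is not given in the sources used here. Genes that overlap on opposite strands may therefore share reads. Read depth was taken as the most frequent one at which low RPKM values times a GENCODE length give a few whole reads, and reads per gene were computed from it with a solved length (32.6% of kept genes) or a GENCODE 29 length. Levels below 1 RPKM in both libraries were left out, and differences were taken on log2(RPKM + 1) with a pseudocount of 1. Counting intervals are exact binomial intervals of 95%. They cover counting error only, since PCR copies are not independent molecules. With 1 library a side no test was possible.

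Named genes were ODC1, the 20 largest differences each way among genes with at least 5 RPKM, all genes past 2-fold on a list, and from every list the 6 members or fewer that differed most. ADM, ANKRD37, ARNT, EGFR, EPAS1, ERLIN2, FICD, GLUL, HIF1A, IL11, ME1, MYL12A, NDRG1, OAT, PMVK, SLC16A1, SMARCD3, SQLE, SREBF1, SREBF2, TPM1 and VEGFA, all outside this rule, and the cell type markers were chosen after their values were seen. The genes, lists and words were chosen with earlier results of these data known. A few genes are not reported here. 3' UTR words come from GENCODE 29 (GRCh38) and promoters from RefSeq (GRCh38.p14), of which 9476 of the kept genes had one. Alternatives were other pseudocounts, filters, scalings and fold limits. Python 3.11.15, pandas 2.3.3, numpy 2.4.6 and scipy 1.17.1 were used.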

Additional observations from a re-analysis of the deposited data

Results flagged for a closer look

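Genes past 2-fold in Huh7 were set beside Huh1 if they had at least 1 RPKM in either Huh1 library. Of these, 3 differed by at least 0.25 the other way in Huh1. With 1 library for each line and siRNA, that opposite direction was not tested. The carbonic anhydrase gene CA9 differed by -1.08 in Huh7 on log2(RPKM + 1), and by 0.33 in Huh1, where it was at 1.202 and 1.78 RPKM. ZNF395, a zinc finger gene, was at 10.4 and 4.16 RPKM in Huh7 (-1.15) and at 2.06 and 2.78 RPKM in Huh1 (0.30). SMARCD3, a chromatin remodelling gene chosen after its values were seen, was at 23.96 and 11.04 RPKM in Huh7 (-1.05) and at 1.18 and 1.67 RPKM in Huh1 (0.29). Each of the 3 genes was at a lower level in both Huh1 libraries than in either Huh7 library. SLC16A3, left out by the limit of 1 RPKM, differed by -1.205 in Huh7. In Huh1 it differed by 0.43, at 0.037 and 0.392 RPKM.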

How the results depend on the processing

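With a pseudocount of 0.1 in place of 1, 92 genes were at least 2-fold higher and 144 lower, and with a pseudocount of 5 these were 12 and 10, against 39 and 49. At 1.5-fold the counts were 289 and 361, and with at least 5 RPKM 31 genes were lower. With a pseudocount of 5 the ODC1 difference was -3.78. Counts under no filter, the scalings and the counting interval stayed within 1.5 times. So did those without genes that hold either 3' UTR word, an alternative chosen after seeing the data. Of 52 lists, 13 changed the sign of their median in some setting, and none of the 12 with a median beyond 0.25 in size did. The median of the reference genes was -0.07 and became 0.0022 with quantile normalization; the cause was not tested. Upper quartile scaling moved the median of all genes to -0.05. No named gene with a counting interval on 1 side of 0 changed direction under these pseudocounts, filters and scalings. No paired analysis was possible because each side is 1 library, which also leaves no replicate to omit. Depth limits genes near 1 RPKM most, where counting error is about 0.41 on the log2 scale.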

Other observations

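Of 28 kept autophagy and lysosome genes 22 were on the higher side with ODC1 siRNA, with a median of 0.17, and of 21 genes of the endoplasmic reticulum and the unfolded protein response 17 were, with a median of 0.09. The median over all kept genes was -0.003. Histone genes, whose copies are close in sequence and whose reads can be shared between them, had a median of 0.41 over 10 kept genes, 3 of them at least 1.5-fold higher. They were weakly expressed, with median levels of 1.91 and 2.39 RPKM. Counting error was about 0.48 either way, larger than the list median, and 3 of the 10 had an interval above 0. Of 14 kept oncofetal genes 13 were lower, with a median of -0.17.

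The sterol response motif TCACNCCAC, read on both strands, was found in none of the 16 promoters of cholesterol synthesis genes and in 1.06% of the 9476 promoters of kept genes, so these letters were absent from those windows. The metal response core TGCGCNC was in 3 of 7 promoters of metallothionein and zinc genes (MT1H, MT1X and MT2A) and in 31.5% of all. These matches describe letters and are no measure of binding.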
